A study of Mus musculus with 12 samples.

Results

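Ccr7, S1pr1, S1pr4, Klf2 and Cd69 govern how T cells enter lymph nodes and leave them. They were picked by gene name, and the 5 genes are described here out of 24439 gene names measured by RNA-Seq in 12 libraries of mouse CD4 T-blast cells (TB), with 3 libraries in each of 4 groups. All cells came from spleens of C42 mice, a C57BL/6 line that carries a transgenic fragment of the human IL3/CSF2 locus in every group, and were isolated with CD4 (L3T4) microbeads. They were activated with 2 µg/ml concanavalin A (ConA, a lectin that engages the T cell receptor) for 40 h and then expanded with IL-2 at 50 U/ml, which lasted 2 days by the labels and 30 h by the methods. TB IL-2 cells stayed in IL-2 for 16 h more, and TB IL-2nil cells spent those 16 h without it. TB+ IL-2 and TB+ IL-2nil are the same cultures after 2 h of PMA/I, meaning 20 ng/ml phorbol myristate acetate with 2 µM calcium ionophore A23187, which bypasses the T cell receptor. PMA/I is not antigen, and ConA acts on T cells of any specificity, which limits the cultures as a model of an immune response. The age and sex of the mice are not given in the sources used here, nor whether the replicates came from separate mice, so P-values measure the spread between these libraries.

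The libraries labelled TB IL-2nil replicate 3 and TB+ IL-2 replicate 3 go against their labels. The study's own list of differentially expressed genes holds their values under each other's name, and they were placed in each other's group for every value below unless the labels are named. So placed, Il2, the cytokine gene that PMA/I switches on, was listed at 0 to 1.18 FPKM in the 6 libraries without PMA/I and at 1095 to 2374 FPKM in the 6 libraries with it. The relative sequencing depth of the libraries ran from 0.412 to 1.25. Cell type markers were summed in FPKM as deposited, without further scaling between libraries. The summed level of 6 CD4 T cell markers such as Cd3e and Cd4 lay between 479 and 687 FPKM in all libraries. That of 5 B cell markers lay between 0.912 and 8.32 FPKM, that of 2 CD8 T cell markers between 2.15 and 12.1 FPKM and that of 5 myeloid markers between 0.500 and 1.65 FPKM, and the 3 NK cell markers summed to at most 0.0832 FPKM.

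CCR7 is the chemokine receptor that draws T cells into lymph nodes along the ligands CCL19 and CCL21. S1PR1 senses sphingosine 1-phosphate (S1P), a lipid that is plentiful in blood and lymph and scarce inside the node, and guides T cells out again. CD69, an early activation marker, binds S1PR1 and has it taken off the cell surface, so that activated T cells are held back in the node. KLF2 is a zinc finger transcription factor of resting T cells that promotes transcription of S1pr1, and S1PR4 is a further S1P receptor of lymphocytes.

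On mm9 (GENCODE M1 models), Ccr7 lies on the minus strand at chr11:99005510-99016391 and has 3 exons. S1pr1 lies on the minus strand at chr3:115413351-115417973, with 2 exons in its longest transcript. S1pr4 lies on the minus strand at chr10:80961223-80962452 in a single exon, between Ncln at a distance of 2086 bp and Gna15 at 2599 bp, the nearest protein-coding genes over 1 TPM. Klf2 lies on the plus strand at chr8:74842932-74845555 with 3 exons, and Cd69 on the minus strand at chr6:129217342-129225387 with 5 exons. No 2 of the 5 genes share a chromosome.

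Promoter sequences are shown for Klf2 and S1pr4, the 2 of the 5 genes with an entry in the promoter table used here. They are the 250 bases before the RefSeq start of each gene on GRCm38.p6, at chr8:72318812-72319061 on the plus strand and at chr10:81500138-81500387 on the minus strand. Capitals mark a match to a searched motif.
Klf2: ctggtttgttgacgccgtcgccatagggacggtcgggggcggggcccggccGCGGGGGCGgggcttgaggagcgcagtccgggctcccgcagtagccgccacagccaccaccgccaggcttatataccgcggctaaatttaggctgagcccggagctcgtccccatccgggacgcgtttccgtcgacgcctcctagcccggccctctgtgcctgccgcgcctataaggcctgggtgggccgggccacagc
S1pr4: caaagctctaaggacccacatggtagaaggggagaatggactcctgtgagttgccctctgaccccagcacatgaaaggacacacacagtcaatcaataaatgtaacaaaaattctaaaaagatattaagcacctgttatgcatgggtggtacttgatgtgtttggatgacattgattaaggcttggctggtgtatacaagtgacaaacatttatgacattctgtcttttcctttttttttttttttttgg
The Klf2 sequence was 71.2% G or C and the S1pr4 sequence 38.8%. The Klf2 sequence held the EGR motif GCGGGGGCG, which begins 199 bases before the start and is found in 2.91% of 32851 mouse promoters of the same length. On either strand of both sequences, and of the 50 bases after the start, there was no match to the FOXO motif GTAAACA (in 3.65% of promoters), the STAT motif TTCNNNGAA (8.3%), the AP-1 motif TGANTCA (7.81%), the EGR motif GCGTGGGCG (0.612%), the KLF motif CCACACCC (3.56%), the NFAT core TGGAAA (21.4%), the CRE TGACGTCA (1.79%) or the MEF2 motif of the search (0.11%). The MEF2 motif of the search was a single fixed sequence without variable bases, and other forms of a MEF2 site were not searched for. The lack of a match to it therefore does not show that the Klf2 or S1pr4 sequence is without a MEF2 site. Promoters of Ccr7, S1pr1 and Cd69 were not analysed here.

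The 5 genes followed 2 patterns over the 4 groups. Ccr7, S1pr1, S1pr4 and Klf2 were highest in TB IL-2nil, intermediate in TB IL-2 and low in both PMA/I groups, while Cd69 was high in both PMA/I groups. Levels are given in TPM (a share of all transcripts corrected for gene length), scaled to a common upper quartile. Fewer cells that express a gene and less RNA of it per cell cannot be told apart in these bulk libraries.

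Ccr7 was at 123, 76.3 and 61.7 TPM in TB IL-2 (replicates 1, 2 and 3) and at 244, 312 and 269 TPM in TB IL-2nil. After PMA/I it was at 8.30, 4.95 and 10.8 TPM in TB+ IL-2 and at 17.9, 8.14 and 38.0 TPM in TB+ IL-2nil. All TB IL-2nil libraries were above all TB IL-2 libraries, and all libraries with PMA/I were below all without it.

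S1pr1 was at 195, 153 and 109.6 TPM in TB IL-2 and at 484, 394 and 331 TPM in TB IL-2nil. With PMA/I, TB+ IL-2 held 5.57, 6.26 and 9.35 TPM and TB+ IL-2nil 9.17, 4.82 and 19.1 TPM. The resting groups did not overlap, and the PMA/I groups did.

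S1pr4 was at 95.9, 80.9 and 106 TPM in TB IL-2, and its TB IL-2nil libraries held 225, 243 and 193 TPM. It was at 5.58, 8.68 and 13.6 TPM in TB+ IL-2 and at 10.4, 7.11 and 24.1 TPM in TB+ IL-2nil. Its groups were ordered like those of S1pr1, and the PMA/I groups again overlapped.

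Klf2 was at 99.5, 84.0 and 71.2 TPM in TB IL-2 and at 241, 191 and 148 TPM in TB IL-2nil. It was at 14.5, 17.5 and 31.4 TPM in TB+ IL-2 and at 13.6, 13.4 and 22.9 TPM in TB+ IL-2nil. Unlike the 3 receptors, its mean was lower in TB+ IL-2nil (16.6 ± 5.41 TPM; SD, n = 3) than in TB+ IL-2 (21.1 ± 9.06 TPM), with overlapping values.

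Cd69 was at 23.4, 51.2 and 182 TPM in TB IL-2 and at 9.15, 9.52 and 133 TPM in TB IL-2nil. After PMA/I it reached 528, 416 and 389.7 TPM in TB+ IL-2 and 1390.4, 719.7 and 920.2 TPM in TB+ IL-2nil. Replicate 3 stood apart in both resting groups, and it was lower without IL-2 than with it in each of the 3 replicates.

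**Figure D1:**
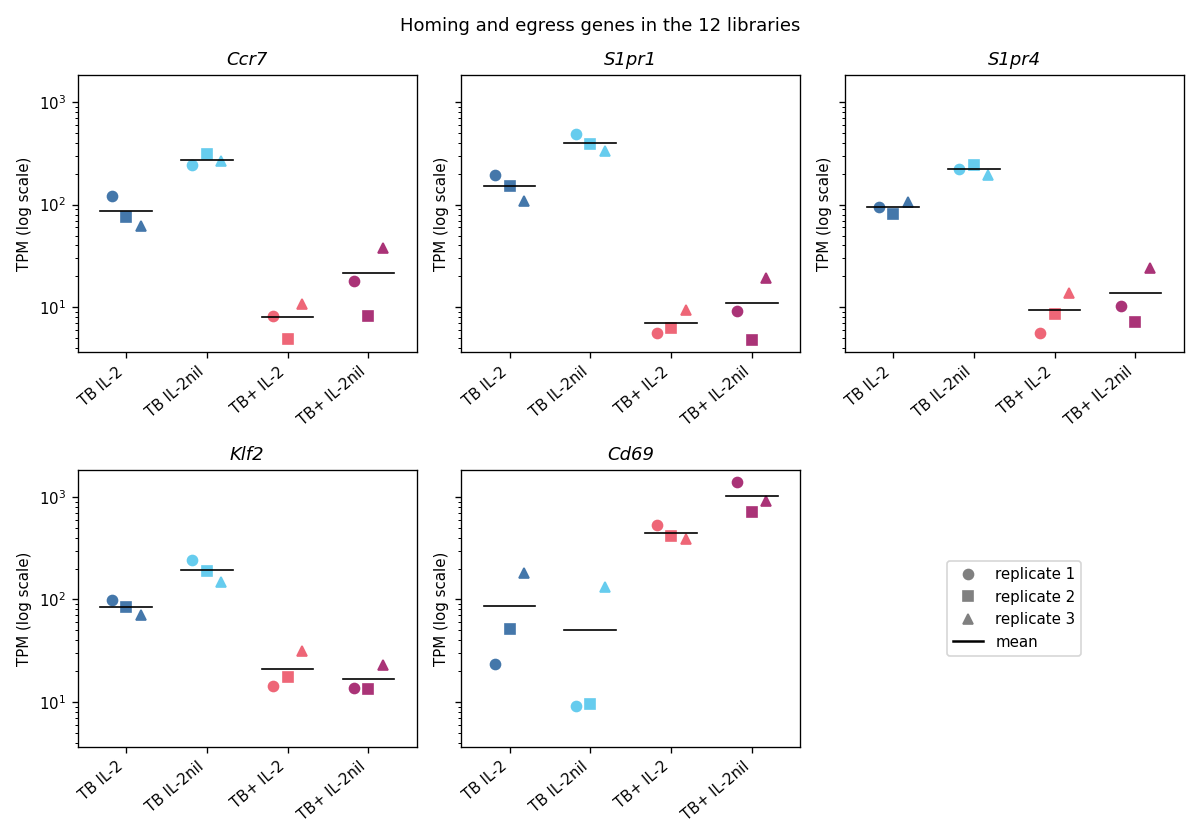
Scaled level (TPM, log axis shared by all panels) of each of the 5 genes in the 12 libraries by group, with a symbol for each replicate and a line at the group mean. The 4 genes that fell after PMA/I run from 61.7 to 484 TPM without PMA/I and from 4.82 to 38.0 TPM with it, and Cd69 is at 389.7 TPM or more only with PMA/I.

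The first comparison asks how the resting cells changed when IL-2 was taken away. Ccr7 rose 3.25-fold without IL-2, by 1.70 in log2(TPM + 1) (SE 0.46, 95% interval 0.70 to 2.71, adjusted P = 0.013, limma with Benjamini-Hochberg adjustment over 12442 genes). S1pr1 was 1.42 higher (SE 0.39, limma adjusted P = 0.0147), S1pr4 1.22 (SE 0.38, limma adjusted P = 0.026) and Klf2 1.16 (SE 0.30, limma adjusted P = 0.0114), which are 2.67-, 2.32- and 2.24-fold. A call needed both an adjusted P under 0.05 and a difference over 3-fold, so Ccr7 was the only one of the 5 genes called, against 2.73% of all genes called higher. By the adjusted P alone 4 of the 5 genes were higher, against 22.3% of all genes, and the groups of the same 4 genes did not overlap, as was so for 30.4% of all genes. Cd69 differed by -1.34 (SE 0.92, 95% interval -3.37 to 0.69, limma adjusted P = 0.267), not beyond the spread between libraries, where 4.69% of all genes were called lower.

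The median of all genes in this comparison was 0.13. With the groups taken from the sample labels, none of the 4 higher genes passed, with differences of -0.25 for S1pr1, -0.03 for S1pr4, 0.20 for Ccr7 and 0.43 for Klf2. Without both relabelled libraries all 4 kept an adjusted P under 0.05 in limma, at 0.0376 for Ccr7, 0.0282 for S1pr1, 0.038 for S1pr4 and 0.00668 for Klf2. Single libraries also mattered, since Ccr7 was at 1.49 (limma adjusted P = 0.0516) without TB IL-2 replicate 3, and S1pr1 was called without TB IL-2 replicate 1 (1.62). S1pr1 was at 1.20 without TB IL-2 replicate 3 (limma adjusted P = 0.0596) and at 1.28 without TB IL-2nil replicate 1 (limma adjusted P = 0.0504). S1pr4 kept an adjusted P under 0.05 in 12 of 19 alternatives, and went above it, up to 0.0832, without replicate 1 or 2 of either group. Klf2 kept it in 17 of 19, the others being the labels (limma adjusted P = 0.893) and TPM not scaled further (limma adjusted P = 0.0519).

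B cell markers moved in the same direction, and mature B cells also express Ccr7, S1pr1, S1pr4 and Klf2. Their summed level was 2.60 to 4.16 FPKM in TB IL-2 and 6.59 to 8.32 FPKM in TB IL-2nil, and 4 of 5 passed the adjusted P, Cd79b being called (1.60, SE 0.31, limma adjusted P = 0.00271). Among the endothelial markers Cdh5, Kdr and Tek were under 1 TPM in every library, and Pecam1, which T cells also express, rose from 22.8 to 80.5 TPM (1.80, SE 0.26, limma adjusted P = 0.000547). Cd4 itself, the coreceptor that marks these cells, rose from 134 to 333 TPM on average (limma adjusted P = 0.000451). By the adjusted P 5 of the 6 CD4 T cell markers were higher in TB IL-2nil, where 22.3% of all genes were. Their median difference was 0.74, and none was called. The summed level of 5 regulatory T cell markers went the other way. It was at 103 to 144 FPKM in TB IL-2 and at 48.2 to 87.7 FPKM in TB IL-2nil. Its largest part was Tnfrsf18, at 93.8 and 34.2 FPKM on average, or 250 and 123 in scaled TPM. Lrrc32 was lower too (47.1 and 3.20 TPM), Ctla4 (20.3 and 105 TPM) and Ikzf2 (1.46 and 3.81 TPM) were higher. Foxp3 was at 0.958 and 1.05 TPM. By the adjusted P 1 of the 5 was higher and 2 were lower. The part of other cells in the levels of the homing genes was not tested.

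The next comparisons ask what 2 h of PMA/I did. With IL-2 present, S1pr1 fell by 4.24 (SE 0.39, limma adjusted P = 2.31e-05), Ccr7 by 3.28 (SE 0.46, limma adjusted P = 0.000371), S1pr4 by 3.28 (SE 0.38, limma adjusted P = 0.000119) and Klf2 by 2.02 (SE 0.30, limma adjusted P = 0.00061). These are falls of 18.9-fold, 9.72-fold, 9.71-fold and 4.05-fold. All 4 genes were called lower, against 3.1% of all genes, and none of their libraries overlapped between the groups, as held for 35.1% of all genes. Counted from the most negative difference of the 12442 genes, S1pr1 stood at rank 13, Ccr7 at 24, S1pr4 at 25 and Klf2 at 182, while the median of all genes was -0.22. Cd69 rose 7.18-fold, by 2.84 (SE 0.92, 95% interval 0.82 to 4.87, limma adjusted P = 0.0338), against 3.94% of all genes called higher. The ratio of its mean TPM was 5.19.

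Without IL-2 the same 4 genes fell from higher starting levels. S1pr1 fell by 5.24 (SE 0.39, limma adjusted P = 2.37e-06), S1pr4 by 4.06 (SE 0.38, limma adjusted P = 9.16e-06), Ccr7 by 3.86 (SE 0.46, limma adjusted P = 3.75e-05), and Klf2 fell by 3.48 (SE 0.30, limma adjusted P = 5.95e-06). The falls were 37.7-fold for S1pr1, 16.6-fold for S1pr4, 14.5-fold for Ccr7 and 11.1-fold for Klf2, and 10.7% of all genes were called lower in this comparison, with non-overlapping groups for 42.3%. S1pr1 had the rank 4 from the most negative of 12442 differences, S1pr4 20, Ccr7 24 and Klf2 46, beside a median of -0.38 over all genes. Cd69 rose 40.2-fold, by 5.33 (SE 0.92, 95% interval 3.30 to 7.36, limma adjusted P = 0.000483), and 7.78% of all genes were called higher.

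The falls of the 4 genes were called in every alternative but the groups of the labels, where they still ran from -1.28 to -3.57 but had adjusted P-values of 0.0803 to 0.639 in limma. B cell markers were lower here too, at 0.912 to 1.15 FPKM in TB+ IL-2 and at 1.41 to 3.54 FPKM in TB+ IL-2nil. The rise of Cd69 with IL-2 was less secure, since its adjusted P went to between 0.0612 and 0.125 in limma when either of TB IL-2 replicates 1 and 2 or any TB+ IL-2 library was left out.

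**Figure D2:**
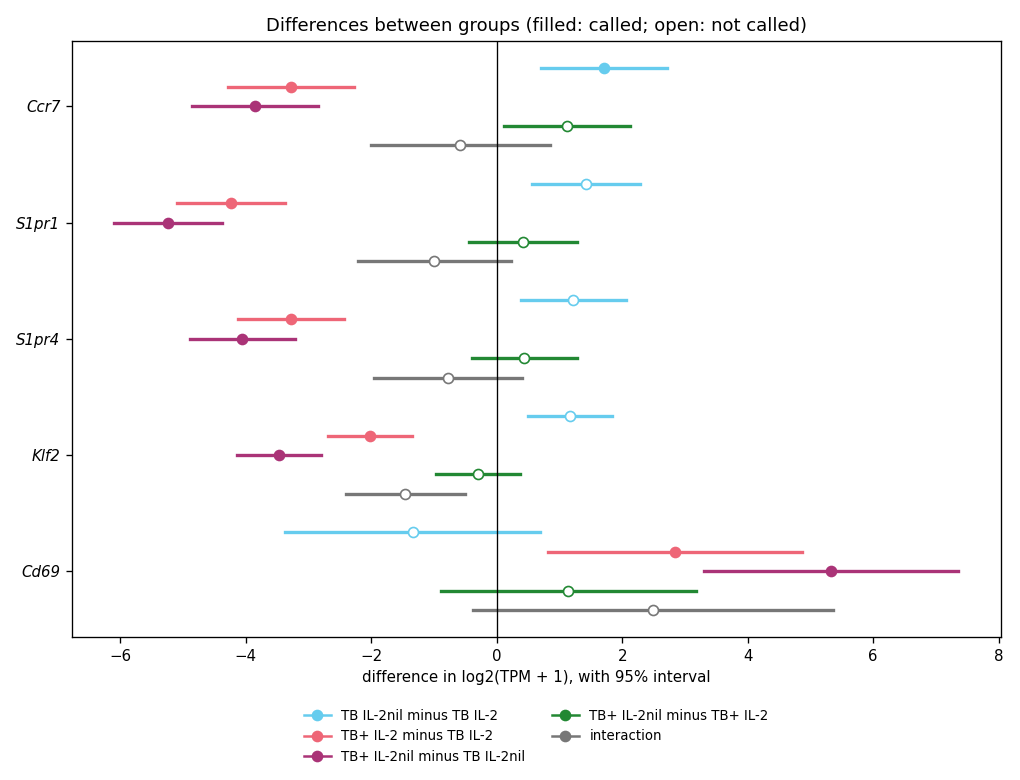
Differences in log2(TPM + 1) for the 5 genes in the 4 comparisons and the interaction, as points with 95% intervals from limma, filled where the gene was called. S1pr1 has the most negative points (-4.24 and -5.24), and the intervals of Cd69 are the widest.

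Between the PMA/I groups, none of the 5 genes was called, while 0.41% of all genes were called higher and 3.21% lower in TB+ IL-2nil. Short non-coding RNAs made up 33.0% to 53.2% of the summed FPKM in TB+ IL-2nil and 22.2% to 27.5% in TB+ IL-2, so these groups did not overlap in library composition. With these RNAs left out none of the 5 genes was called either, and Ccr7 was at 1.16 (limma adjusted P = 0.0881). Ccr7 was 1.12 higher without IL-2 (95% interval 0.12 to 2.13, limma adjusted P = 0.104) and was the only one of the 5 genes with an unadjusted P under 0.05. Left without TB+ IL-2nil replicate 2, it was at 1.65 and called (limma adjusted P = 0.0159). The differences of S1pr1 (0.42, 95% interval -0.44 to 1.28), S1pr4 (0.44, -0.40 to 1.28) and Klf2 (-0.30, -0.96 to 0.37) lay within the spread between libraries. The first 2 turned to -0.04 and -0.02 without TB+ IL-2nil replicate 3, and Klf2 to 0.02 without TB+ IL-2 replicate 3. Cd69 was higher in each TB+ IL-2nil library than in any TB+ IL-2 library, as were 18.3% of all genes. Its difference of 1.14 (SE 0.92, 95% interval -0.89 to 3.17) had an adjusted P of 0.408 in limma on all 12 libraries and of 0.0351 when only these 6 libraries were fitted.

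By these tests the order of the levels could be drawn. For Ccr7, S1pr1 and S1pr4 it was TB IL-2nil, TB IL-2, TB+ IL-2nil and TB+ IL-2 from high to low, of which the last 2 did not differ beyond their spread for S1pr1 and S1pr4, and did not pass the adjusted P for Ccr7. For Klf2 the last 2 groups changed places, again without a difference beyond their spread. TB+ IL-2nil was lower than TB IL-2 for Ccr7 (-2.16, limma adjusted P = 0.00202), S1pr1 (-3.82, limma adjusted P = 1.77e-05), S1pr4 (-2.84, limma adjusted P = 0.000105) and Klf2 (-2.31, limma adjusted P = 9.15e-05), all called, as were 9.87% of all genes. For Cd69 the order was TB+ IL-2nil, TB+ IL-2, TB IL-2 and TB IL-2nil, and of neighbours in it only TB+ IL-2 and TB IL-2 differed.

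The interaction asks whether the PMA/I effect depended on IL-2. It was -1.46 for Klf2 (SE 0.43, 95% interval -2.40 to -0.51, limma adjusted P = 0.0814), -0.99 for S1pr1, -0.78 for S1pr4, -0.58 for Ccr7 and 2.48 for Cd69 (SE 1.31, limma adjusted P = 0.281). None of the 5 genes passed in limma with or without its trend option, while 2.66% of all genes had a higher and 1.57% a lower effect without IL-2, and Klf2 was the only one of the 5 with an unadjusted P under 0.05. Klf2 passed only without TB+ IL-2nil replicate 3 (-1.70, limma adjusted P = 0.0336). With a block for the replicate number, genes passing the interaction went from 331 to 718 higher and from 195 to 760 lower, and none of the 5 genes was among them.

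Cd69 had the widest spread of the 5 genes. In the resting replicate 3 libraries it was 1.81 (TB IL-2) and 3.67 (TB IL-2nil) log2 units above the higher of the other 2 replicates. It was among 18 genes that exceeded both other replicates by more than 1 log2 unit in both resting groups, a comparison made after the values were seen. By the smaller of their excesses in these groups, the microRNA genes Mir7-1 and Mir467f led the 18, at 5.14 and 4.24 log2 units. Others of the 18 were Tnfaip3 and Nfkbia, feedback inhibitors of NF-kB signalling, Zfp36, which destabilises mRNAs, and the phosphatase gene Dusp1. The transcription factor genes Fos, Junb and Irf1 were also among them, as were Apol8, Trerf1, Rap1gap2, Gm10804 and Slc2a3. Tnfaip3 was at 8.38, 4.26 and 60.6 TPM in TB IL-2 and at 29.9, 36.1 and 308 TPM in TB IL-2nil. Nfkbia was at 53.6, 21.3 and 206 TPM and at 104, 92.7 and 648 TPM in the same groups. The resting replicate 3 libraries of both genes were at levels that the other replicates did not reach without PMA/I. Egr2, a further gene of early T cell activation, was at 0.637 to 1.27 TPM in all 6 resting libraries and at 494 to 1246 TPM after PMA/I, so replicate 3 did not stand apart for it. Nr4a1 was at 4.89, 3.23 and 12.3 TPM in TB IL-2 and at 3.12, 3.72 and 3.21 TPM in TB IL-2nil. What the 2 libraries share was not tested.

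**Figure D3:**
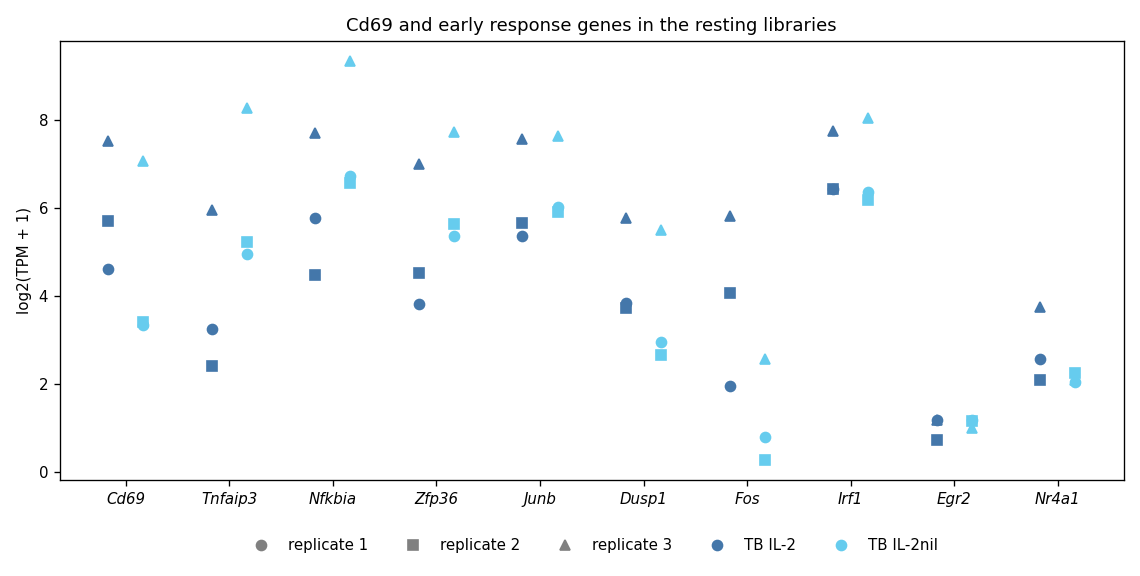
Level, as log2(TPM + 1), of Cd69 and 9 early response genes in the 6 libraries without PMA/I, coloured by group and with a symbol for each replicate. Replicate 3 is the highest in both groups for Cd69, Tnfaip3, Nfkbia, Zfp36, Junb, Dusp1, Fos and Irf1. For Egr2 the 3 replicates lie together, and for Nr4a1 replicate 3 is the highest in TB IL-2 only.

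With both resting replicate 3 libraries left out, which was decided on after their levels were known, Cd69 was lower without IL-2 by -1.78 and called (SE 0.39, limma adjusted P = 0.0134). Without TB IL-2nil replicate 3 alone the difference was -2.57 (limma adjusted P = 0.0134). The rise with PMA/I in this setting was 3.63 with IL-2 (limma adjusted P = 0.000213) and 6.55 without it (limma adjusted P = 6.31e-06). Ccr7, S1pr1 and S1pr4 no longer passed between the resting groups in this setting, at 1.51, 1.34 and 1.40 (limma adjusted P = 0.0932, 0.074 and 0.0712), and Klf2 did at 1.23 (limma adjusted P = 0.0426).

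Within groups the 4 genes that fell with PMA/I deviated together. Over the 12 libraries, the Pearson correlation of deviations from the group means was 0.88 between Ccr7 and S1pr1, 0.82 between S1pr1 and Klf2, 0.81 between S1pr1 and S1pr4 and 0.62 between Ccr7 and Klf2. Those of Cd69 with the 4 genes lay between -0.53 and -0.09. In both PMA/I groups replicate 3 held the highest value of all 4 genes. These are descriptions, since the genes of a library share its depth and scaling.

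S1P receptors and the enzymes around them formed the first list of pathway genes, with 19 of 23 listed genes tested. After PMA/I with IL-2, 1 was called higher and 5 lower, with a median of -0.32 beside -0.22 for all genes, and without IL-2 the counts were again 1 and 5, with a median of -0.56 beside -0.38. Of all genes 3.94% were called higher and 3.1% lower with IL-2, and 7.78% and 10.7% without it. Those called lower in both were S1pr1, S1pr4, the sphingosine kinase gene Sphk2, the S1P phosphatase gene Sgpp1 and Arrb2, an arrestin that uncouples receptors. Sphk2 was at 13.1 ± 1.41 TPM (SD, n = 3) in TB IL-2 and at 3.17 ± 0.531 TPM in TB+ IL-2, a difference of -1.76 (SE 0.15, limma adjusted P = 1.4e-05), and fell by 2.67 without IL-2 (SE 0.15, limma adjusted P = 4.51e-07). Its PMA/I effect differed without and with IL-2 (-0.91, SE 0.21, limma adjusted P = 0.0423), a call kept in 9 of 24 alternatives and lost, among others, with quantile normalization, without scaling beyond TPM and without both relabelled libraries. Sgpp1 fell by 1.76 and 2.15 with and without IL-2 (limma adjusted P = 0.000118 and 9.61e-06).

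Sphk1, the other sphingosine kinase gene, went the opposite way. It was at 0 to 0.273 TPM in the 6 libraries without PMA/I, at 45.5, 33.4 and 40.0 TPM in TB+ IL-2 and at 102, 59.4 and 53.3 TPM in TB+ IL-2nil. The rises were 5.14 (SE 0.23, limma adjusted P = 1.35e-07) and 5.96 (SE 0.23, limma adjusted P = 4.12e-08), and their size depends on the pseudocount because the resting levels are near 0. TB+ IL-2nil was 0.79 above TB+ IL-2 (SE 0.23, limma adjusted P = 0.0342), under 3-fold.

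The mix of S1P receptor transcripts changed with PMA/I. S1pr1 and S1pr4 made up 97.6% to 99.1% of the summed FPKM of the 5 receptor genes in each library without PMA/I, and 48.2% to 74.2% with it. Most of the rest was S1pr2, which encodes a receptor that restrains migration and was at 4.73, 5.99, 8.80 and 13.5 TPM on average in TB IL-2, TB IL-2nil, TB+ IL-2 and TB+ IL-2nil. S1pr2 was higher after PMA/I by 0.83 with IL-2 (SE 0.28, limma adjusted P = 0.039) and by 1.06 without it (SE 0.28, limma adjusted P = 0.00657), neither over 3-fold. S1pr3 and S1pr5 were under 1 TPM in every library. The ratio of S1pr1 to S1pr4 was 1.03 to 2.15 without PMA/I and 0.677 to 0.999 with it.

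**Figure D4:**
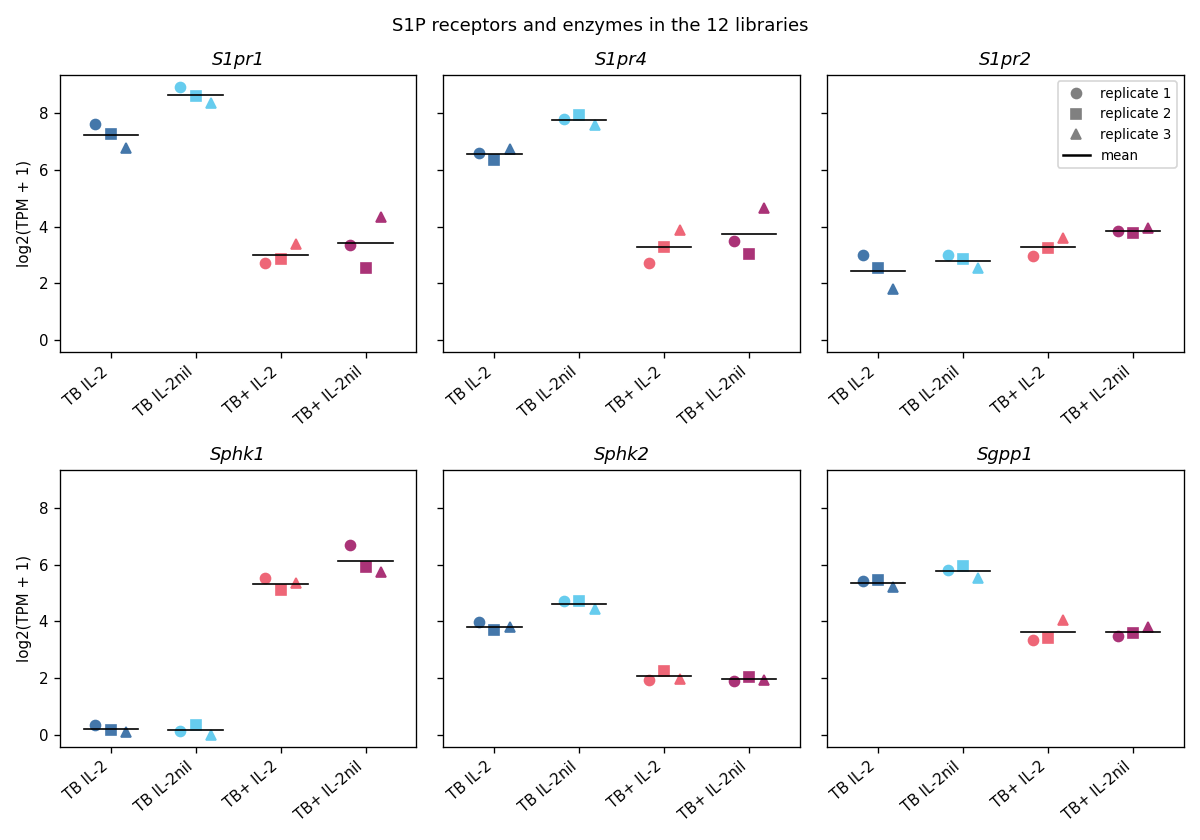
Level, as log2(TPM + 1), of 3 S1P receptor genes and 3 genes of S1P enzymes in the 12 libraries by group, with a symbol for each replicate and a line at the mean. S1pr1, S1pr4, Sphk2 and Sgpp1 are lower in both PMA/I groups, Sphk1 is at 0.273 TPM or less without PMA/I and at 33.4 TPM or more with it, and S1pr2 shows the smallest shift.

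Of the other S1P genes named by rule, Spns2, an S1P exporter, was under 1 TPM on average in all groups but TB+ IL-2nil, where it was at 1.81 TPM. Sgpl1, the S1P lyase gene, was 1.04 higher in TB+ IL-2nil than in TB+ IL-2 (SE 0.26, limma adjusted P = 0.0167). Gnai2, the G protein subunit through which CCR7 and S1PR1 signal, was 1.35 lower there (-1.35, SE 0.20, limma adjusted P = 0.00117). The receptor kinase gene Grk2, listed as Adrbk1, was 0.90 higher in TB IL-2nil than in TB IL-2 (SE 0.22, limma adjusted P = 0.00888). In that comparison no S1P gene was called and 5 of 19 passed the adjusted P, all higher, a share near the 22.3% of all genes, with 7 at an unadjusted P under 0.05.

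Of the CCR7 and lymph node entry genes, 23 of 24 were tested. On loss of IL-2 in resting cells 3 were called higher and none lower, where 2.73% of all genes were called higher and 4.69% lower, and the median was 0.31 beside 0.13 for all genes. Among them were Ccr7 and Itga4, the integrin alpha 4 chain, which went from 15.7, 8.59 and 11.9 TPM to 95.9, 98.9 and 74.5 TPM (2.82, SE 0.27, limma adjusted P = 6.67e-05). PMA/I lowered 2 genes of the list with IL-2, Ccr7 and Arrb2, and 4 without it, Itga4 among them (-2.26, SE 0.27, limma adjusted P = 3.52e-05). Of all genes 3.1% were called lower with IL-2 and 10.7% without it. Gpr183, a receptor that positions activated lymphocytes in lymphoid tissue, was called higher after PMA/I without IL-2 (2.14, SE 0.63, limma adjusted P = 0.012) and in TB+ IL-2nil against TB+ IL-2 (2.06, SE 0.63, limma adjusted P = 0.0388). The second of these calls was kept in 10 of 18 alternatives, the replicate block among them (SE 0.27, limma adjusted P = 0.000778). It was lost without TB+ IL-2 replicate 2 (1.87) or 3 (1.58) and without TB+ IL-2nil replicate 1 (1.43), with limma adjusted P = 0.112, 0.147 and 0.144. Its levels were 77.1, 22.4 and 14.9 TPM in TB+ IL-2 and 307, 81.3 and 82.4 TPM in TB+ IL-2nil. The chemokine receptor gene Cxcr4 differed by -0.71 and -0.60 after PMA/I (limma adjusted P = 0.216 and 0.24), and Itgal, the LFA-1 alpha chain, was 0.77 lower without IL-2 (-0.77, SE 0.19, limma adjusted P = 0.00461) and 0.21 lower with it (-0.21, limma adjusted P = 0.428).

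Among 12 Krüppel-like factors tested of 16, Klf2 and Klf3 were those called lower after PMA/I without IL-2. Klf3, a transcriptional repressor, was at 34.1, 86.4, 10.7 and 8.76 TPM on average in TB IL-2, TB IL-2nil, TB+ IL-2 and TB+ IL-2nil, and fell by 3.19 without IL-2 (SE 0.31, limma adjusted P = 1.09e-05) and by 1.55 with it (SE 0.31, limma adjusted P = 0.00305, under 3-fold). Klf4 and Klf9 rose instead. Klf4, the closest relative of Klf2 among these factors, went from 0.922 to 6.78 TPM with IL-2 (2.05, SE 0.40, limma adjusted P = 0.00288) and from 0.477 to 23.7 TPM without it (3.98, SE 0.40, limma adjusted P = 1.41e-05). Klf9 rose by 2.24 and 3.05 (limma adjusted P = 1.32e-05 and 8.16e-07), and Klf16 by 2.66 without IL-2 (SE 0.28, limma adjusted P = 1.7e-05). Klf4 was also called higher in TB+ IL-2nil than in TB+ IL-2 (1.64, SE 0.40, limma adjusted P = 0.016), a call kept in 8 of 18 alternatives and lost without TB+ IL-2 replicate 2 or 3 or TB+ IL-2nil replicate 1 or 3, where the difference was 1.37 to 1.63. With the replicate block this call was kept (SE 0.28, limma adjusted P = 0.00252). The list thus had 2 called higher and 1 lower with IL-2, and 3 higher and 2 lower without it. The shares of all genes called higher and lower were 3.94% and 3.1% with IL-2, and 7.78% and 10.7% without it. Medians of the list were -0.0011 and 0.08, beside -0.22 and -0.38 for all genes. On loss of IL-2 in resting cells no factor was called, and 3 of 12 passed the adjusted P, all higher and again a share near the 22.3% of all genes, namely Klf2, Klf3 and Klf13, with no other at an unadjusted P under 0.05.

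**Figure D5:**
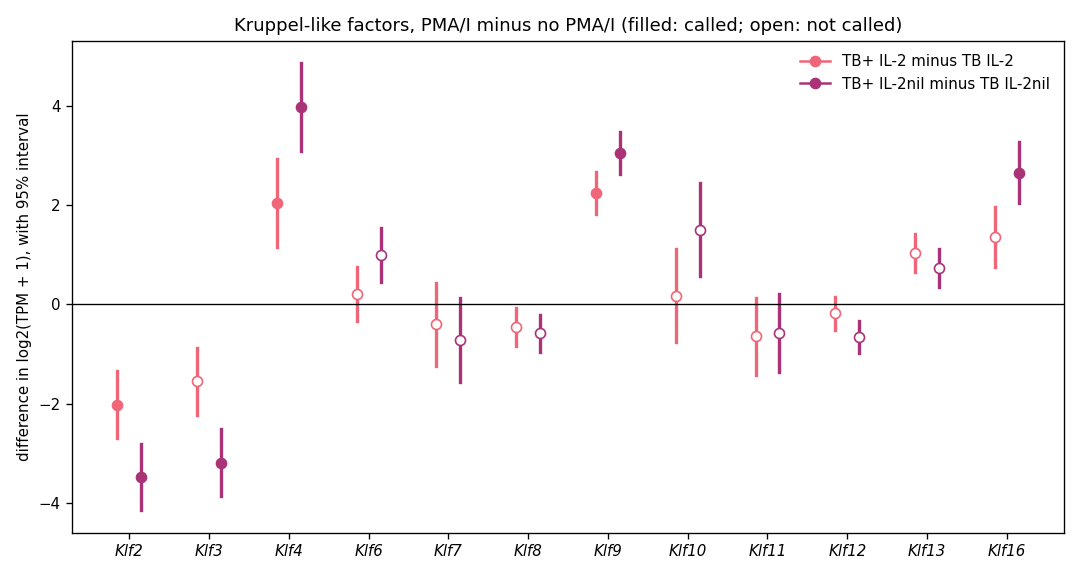
Differences in log2(TPM + 1) after PMA/I for 12 Krüppel-like factors, with and without IL-2, as points with 95% intervals from limma, filled where the gene was called. Klf2 and Klf3 lie below 0 and Klf4, Klf9, Klf13 and Klf16 above it in both comparisons.

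FOXO1 is a transcription factor that cytokine and antigen receptor signals keep out of the nucleus and that promotes transcription of Klf2, Ccr7, S1pr1 and Il7r in T cells. Of 15 tested genes of a list around it, which includes Klf2, Ccr7 and S1pr1, all 15 were higher in TB IL-2nil than in TB IL-2, 14 of them with an adjusted P under 0.05 and 7 called, with a median of 1.42. Over all genes 22.3% were higher by the adjusted P and 2.73% called higher, with a median of 0.13. Il7r, the IL-7 receptor gene, rose from 54.5 to 588 TPM (3.54, SE 0.49, limma adjusted P = 0.000406). Btg1, an antiproliferative gene, rose by 2.72 (limma adjusted P = 3.71e-05), Tcf7, the gene of TCF-1, by 2.50 (limma adjusted P = 0.00292), and Cdkn1b, a cell cycle inhibitor gene, by 1.85 (limma adjusted P = 0.00355). Foxo1 itself was the exception, at 70.6 and 117 TPM (0.66, SE 0.30, limma adjusted P = 0.103). The paper names some of these genes from the same libraries, so the list is not independent evidence of its direction.

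After PMA/I the list parted. Cdkn1b fell by 2.43 with IL-2 (limma adjusted P = 0.000796) and by 4.26 without it (limma adjusted P = 7.09e-06), like S1pr1. Il7r differed by 0.29 with IL-2 (limma adjusted P = 0.681) and by -1.71 without it (limma adjusted P = 0.0103). Tcf7 differed by -1.31 with IL-2 (limma adjusted P = 0.0615) and fell by 2.69 without it (limma adjusted P = 0.000755). Btg1 rose by 2.61 with IL-2 (limma adjusted P = 1.49e-05), and its PMA/I effect was 1.62 lower without IL-2 (-1.62, limma adjusted P = 0.0265), which passed in 14 of 24 alternatives. In all, 1 was called higher and 4 lower with IL-2, and 8 lower without it. Of all genes 3.94% were called higher and 3.1% lower with IL-2, and 7.78% and 10.7% without it. The medians of the list were -0.68 and -1.71, beside -0.22 and -0.38 for all genes. Foxo1 was not changed by PMA/I beyond its spread (-0.17 and 0.30, limma adjusted P = 0.702 and 0.4), and was 1.13 higher in TB+ IL-2nil than in TB+ IL-2 (SE 0.30, limma adjusted P = 0.0227).

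The replicate block moved the counts of these lists in the interaction, where a gene passes at an adjusted P under 0.05. They went from 1 to 3 of 19 for the S1P genes, from 0 to 3 of 23 for the entry genes, from 0 to 3 of 12 for the Krüppel-like factors and from 1 to 4 of 15 for the FOXO1 list, while 11.9% of all genes passed with the block. Without the block, 6 of the entry genes and 8 of the Krüppel-like factors had an unadjusted P under 0.05, and the limma trend option passed none of either.

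Cd69 lies in a cluster of C-type lectin genes, of which 3 of 12 listed neighbours were over 1 TPM. Clec2d, the nearest measured gene at lower coordinates (80790 bp away), was at 127, 134 and 41.0 TPM in TB IL-2 and at 358, 412 and 192 TPM in TB IL-2nil and was called higher there (1.76, SE 0.42, limma adjusted P = 0.00731). After PMA/I it differed by -0.50 with IL-2 and by -0.92 without it (limma adjusted P = 0.385 and 0.0784), while Cd69 rose. Clec7a, not on the list, was the nearest measured gene at higher coordinates (186224 bp away). It was 0.69 higher after PMA/I with IL-2 and 0.46 higher without it (limma adjusted P = 0.0147 and 0.0486), neither called. Clec2i differed by at most 0.18 in the comparisons of PMA/I, and no listed neighbour was called in them. The neighbours of S1pr4 were lower after PMA/I without IL-2, Ncln by 1.91 (-1.91, SE 0.22, limma adjusted P = 3.29e-05) and Gna15 by 1.84 (-1.84, SE 0.22, limma adjusted P = 4.48e-05), beside -4.06 for S1pr4. Both were called there, as were 10.7% of all genes. With IL-2 Ncln differed by -0.52 and Gna15 by -1.26 (limma adjusted P = 0.0931 and 0.00154), neither called, beside -3.28 for S1pr4.

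Among 8797 genes with at least 5 TPM on average, those whose log2(TPM + 1) over the 12 libraries was most like each gene were named by Pearson's r, as a description of levels that share 4 groups. They were Ifnar1 (0.993), Card6 (0.989) and Zfp652 (0.987) for Ccr7, and Fam78a (0.996), Nsd1 (0.993) and Ppm1k (0.993) for S1pr1. S1pr4 was most like Ppp1r21 (0.995), Zmynd8 (0.993) and Fam78a (0.993), and Klf2 most like Fam78a (0.991), Bcl9l (0.990) and Zfp710 (0.989). Fam78a was thus common to S1pr1, S1pr4 and Klf2. Cd69 had lower values, with Sfpq (0.975), Riok1 (0.973) and Pim1 (0.973).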

How the data were processed

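RNA-Seq libraries were rRNA-depleted and directional. The deposited values are FPKM for each gene name, which the authors made with Trimmomatic 0.32, HISAT2 2.1.0 on mm9 and StringTie 1.3.3 (versions from the submitters' processing notes). They hold no read counts, so depth is relative only, from the steps between low values, and no counting interval is given. Here each library was turned into TPM and brought to the same upper quartile. The 12442 genes that exceeded 1 TPM somewhere went into limma 3.58.1 under R 4.3.3, as log2(TPM + 1) with 1 mean for each of the 4 groups, leaving 8 residual degrees of freedom. This scale understates changes of low genes. The code was tested on simulated data. Figures used matplotlib 3.10.9 (Python 3.11.15).

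The 5 genes and the lists were chosen with earlier results of these data known. Named genes were the 5 genes, up to 4 called genes per list with the largest differences, 15 fixed pathway genes and the 3 most similar genes of each. Some listed genes are not reported here by name. Listed genes lie on several lists, as Ccr7, S1pr1, Klf2, Gnai2 and the arrestins do. Genes of replicate 3 were chosen after their values were seen.

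For the placement, each of the 12 columns of the study's gene list met 1 library within 0.1% at all 1391 genes compared. The 2 relabelled libraries met the column of their own label at 0.0719% of genes. So placed, deviations from the group means correlated at 0.101 to 0.531 in all 18 pairs of libraries that share a replicate number, and at over 0.1 in 2 of 36 other pairs, so the numbers were taken to pair the libraries. The numbers come from the labels, which do not say what they share. The model has no block, and the block is an alternative. Gene positions are those of GENCODE M1 on mm9, whereas promoters are RefSeq on GRCm38.p6, whose table holds 2 of the 5 genes.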

Additional observations from a re-analysis of the deposited data

Results flagged for a closer look

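The effect of PMA/I on 3 listed genes differed with and without IL-2 by the interaction test, beyond the spread between libraries. They were 1 of 19 S1P genes, 1 of 15 genes of the FOXO1 list and 1 of 5 regulatory T cell markers. No gene of the other lists passed, while 4.23% of all genes did. For Sphk2 the effect without IL-2 minus that with IL-2 was -0.91 in log2(TPM + 1) (SE 0.21, limma adjusted P = 0.0423), with falls of 1.76 with IL-2 and 2.67 without it. For Btg1 it was -1.62 (SE 0.32, limma adjusted P = 0.0265), with rises of 2.61 with IL-2 and 0.99 without it. Lrrc32, a marker gene of activated regulatory T cells, had the opposite sign, at 3.27 (SE 0.66, limma adjusted P = 0.0266). Its mean went from 47.1 to 9.68 TPM after PMA/I with IL-2 and from 3.20 to 7.54 TPM without it. Sphk2 passed in 9, Btg1 in 14 and Lrrc32 in 14 of 24 alternatives each, with the same sign in all of them. With the replicate block all 3 passed (limma adjusted P = 0.0236, 0.0172 and 0.0167), as did 11.9% of all genes. None of the 3 passed with the groups of the labels, without both relabelled libraries or without scaling beyond TPM, where 1 gene of 12442 passed, and Sphk2 also did not with quantile normalization (-0.80, limma adjusted P = 0.0602). The call of Sphk2 was lost without any 1 library other than TB IL-2 replicate 1, TB IL-2nil replicate 3 and TB+ IL-2nil replicate 3 (-0.96 to -0.80). That of Btg1 was lost without TB IL-2 replicate 2, TB IL-2nil replicate 2 or 3, or replicate 1 or 2 of either PMA/I group (-1.70 to -1.39). That of Lrrc32 was lost without replicate 2 of either resting group, any TB+ IL-2 library or TB+ IL-2nil replicate 1 (2.79 to 3.46).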

How the results depend on the processing

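Of 550 alternative values for the 5 genes, 512 kept direction and side of the threshold, 21 lost the call, 8 gained it and 9 changed sign. The replicate block changed no call of the 5 genes. With the groups of the labels, Ccr7 was at 0.20, S1pr1 at -0.25 and S1pr4 at -0.03 on loss of IL-2. In that setting the PMA/I differences were uncalled at -1.78 (Ccr7), -2.57 (S1pr1), -2.04 (S1pr4), -1.28 (Klf2) and 2.33 (Cd69) with IL-2, and at -2.36, -3.57, -2.81, -2.74 and 4.81 without it. Ccr7, S1pr1 and S1pr4 turned to -0.38, -1.24 and -0.80 between the PMA/I groups. This setting mixes resting and stimulated libraries in 2 groups. Without both relabelled libraries, Cd69 was called on loss of IL-2 (-2.57) and Klf2 turned to 0.01 between the PMA/I groups. Quantile normalization called S1pr1 on loss of IL-2 (1.80) and lost Cd69 with IL-2 (2.59), as did no filter on low values (2.99). The cause was not tested. Added after seeing the data, leaving out the resting or all replicate 3 libraries put Ccr7 at 1.51, under 3-fold, and Cd69 at -1.78, called.

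Leaving out 1 library at a time gave 1.49 to 1.98 (Ccr7), 1.20 to 1.62 (S1pr1) and -2.57 to -0.55 (Cd69) on loss of IL-2. It gave 2.18 to 3.63 for Cd69 after PMA/I with IL-2, and 0.60 to 1.65 (Ccr7), -0.04 to 0.86 (S1pr1), -0.02 to 0.79 (S1pr4) and -0.54 to 0.02 (Klf2) between the PMA/I groups. The Klf2 interaction ran from -1.70 to -1.15. The median of all genes moved with the scaling, in TB+ IL-2nil minus TB IL-2nil from -0.78 without scaling beyond TPM to -0.14 with quantile normalization, and the share called higher of all called from 20.1% to 58.4%, beside 42.2% in the main scaling. In TB+ IL-2 minus TB IL-2 that share ran from 50.7% to 69.9%, beside 55.9%. In all 3 other scalings the 4 genes that fell with PMA/I were called lower. Between the PMA/I groups, Klf4 was at 1.52 with quantile normalization and at 1.26 without scaling beyond TPM, under 3-fold, and Gpr183 at 1.67 without that scaling (limma adjusted P = 0.0901). Over all genes, calls on loss of IL-2 went from 340 higher and 583 lower to 5 and 7 by the labels, and those of the interaction from 331 and 195 to 1 and 3 without both relabelled libraries and to 1 and 0 without scaling beyond TPM. Low genes such as Sphk1 in resting cells are limited by depth, which was lowest in TB IL-2nil replicate 2.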
